A study of Mus musculus with 2 samples.

Results

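Genes of the motile cilium were compared between the ventral midbrain of COUP-TFII overexpression (OE) mice and control (Ctrl) mice. The members are the gene rows whose symbols belong to the families of axonemal dynein chains (Dnah, Dnai or Dnaic), radial spoke heads (Rsph), tektins (Tekt), the central pair proteins Spag6, Spag16 and Spag17 or the Cfap family, or are 1 of 12 further genes such as Foxj1, Hydin and Ccdc39. They numbered 42 of 31252 gene rows. No row carries a symbol of the Cfap family, and most of these genes appear under older names, which are given separately. Both genotypes carry Cre recombinase driven by Slc6a3, the gene of the dopamine transporter, so that Cre is restricted to dopaminergic neurons. OE mice carry in addition the CAG-S-COUP-TFII allele, from which Cre releases COUP-TFII, and the labels give Ctrl mice Slc6a3-Cre without it. In the cross that the study describes for its Ctrl and OE littermates, the mothers were homozygous for a floxed Tfam allele and for a tdTomato reporter at ROSA26, so that both genotypes would also carry these, although the labels do not list them. The mice were 2 months old, of a strain labelled as incipient congenic C57BL/6, and there was 1 library per genotype, so no difference has a replicate check and no p-value was computed. Whether each library came from a single mouse is not given in the sources used here.

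Nr2f2, the gene of COUP-TFII, had 637 counts in the Ctrl-labelled and 377 in the OE-labelled library. The overexpressed gene thus goes against the labels, and every direction below is that of the OE-labelled library over the Ctrl-labelled library. The labels name dopaminergic neurons as the cell type, while the source is dissected ventral midbrain: Th, the enzyme that limits dopamine synthesis, had 2499 and 9354 counts, and all 10 oligodendrocyte markers and all 11 astrocyte markers were detected in both libraries. The totals were 16984336 counts in the Ctrl-labelled library and 21326632 in the OE-labelled library. Normalized counts are counts scaled by TMM, a method that sets the bulk of genes equal between libraries. Fold changes on the log2 scale were computed with 0.5 normalized counts added to each library, and genes were compared where their mean reached 10 counts, which 15246 did. The interval given with a gene is the exact 95% Clopper-Pearson interval on the split of its 2 counts, which covers counting error only.

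Motile cilia bend when dynein arms on the outer microtubule doublets pull against neighbouring doublets, while radial spokes and a central pair of microtubules coordinate the arms. In the brain they are carried in tufts by ependymal cells, which line the ventricles, and their beat moves cerebrospinal fluid. Foxj1 is the transcription factor that switches on the axonemal genes of such cells, and factors of the RFX family act with it through X-box sequences in the promoters of cilia genes. COUP-TFII belongs to the nuclear receptors, which bind half-sites of AGGTCA.

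The promoters of the members were searched for such letters. RefSeq promoters (GRCm38.p6) matched 36 of the 42 members by symbol. Over the 250 bases before the start, on either strand, GTTGCC, a half-site of the X-box, was present for 12 of the 36 members, or 33.3%, and for 11.8% of 27025 genes with a promoter. TGTTTAC, a forkhead core, was present for 3 members, Ak7, Dnah17 and Tekt3, or 8.33%, beside 3.54% of all genes. AGGTCA was present for 0 of the 36 members, beside 15.8% of all genes. None of the 3 motifs contains another, and a match describes letters, not a bound site. The windows of 4 members, chosen after their values were seen, are printed, 3 that were lower in the OE-labelled library and Tekt1, which was higher. Capitals mark GTTGCC or its reverse complement GGCAAC, and each window ends at the base before the start. Tekt1 has a further RefSeq start, whose window holds none of the 3 motifs.
Ccdc153 (chr9:44240427-44240676, plus strand): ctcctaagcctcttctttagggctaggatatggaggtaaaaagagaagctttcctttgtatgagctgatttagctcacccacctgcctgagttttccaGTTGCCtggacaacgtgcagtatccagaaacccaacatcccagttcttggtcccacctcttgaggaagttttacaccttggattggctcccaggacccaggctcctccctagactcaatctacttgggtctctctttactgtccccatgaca
Dnah10 (chr5:124724835-124725084, plus strand): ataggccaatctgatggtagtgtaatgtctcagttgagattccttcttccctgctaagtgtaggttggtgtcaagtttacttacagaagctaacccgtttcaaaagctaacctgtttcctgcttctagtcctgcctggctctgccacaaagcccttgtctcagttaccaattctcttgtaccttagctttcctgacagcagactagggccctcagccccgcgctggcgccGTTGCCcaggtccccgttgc
Hydin (chr8:110266727-110266976, plus strand): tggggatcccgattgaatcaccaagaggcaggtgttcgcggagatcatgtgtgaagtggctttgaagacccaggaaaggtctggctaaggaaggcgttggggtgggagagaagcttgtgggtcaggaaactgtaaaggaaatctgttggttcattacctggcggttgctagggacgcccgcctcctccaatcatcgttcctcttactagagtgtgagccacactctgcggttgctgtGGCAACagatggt
Tekt1 (chr11:72361883-72362132, minus strand): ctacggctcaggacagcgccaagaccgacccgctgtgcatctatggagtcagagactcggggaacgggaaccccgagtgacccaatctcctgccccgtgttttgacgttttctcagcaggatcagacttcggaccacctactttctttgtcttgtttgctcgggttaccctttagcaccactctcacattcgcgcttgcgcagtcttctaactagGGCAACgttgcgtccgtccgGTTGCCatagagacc
The match begins 13 bases before the start in Hydin, 20 bases before it in Dnah10 and 152 bases before it in Ccdc153. Tekt1 holds a match on each strand, beginning 15 and 35 bases before the start. The other 8 members with the half-site were Dnah7a, Dnah7b, Dnaic2, Drc1, Mcidas, Spag6, Spag16 and Tekt2. Members with the half-site thus included lower ones, a higher one and ones near 0, such as Dnah7b and Drc1.

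Motile cilia genes were scarce in this tissue and did not move as 1 group. Summed over the 42 members, there were 3151 counts in the Ctrl-labelled library and 3694 in the OE-labelled library, which is 186 and 173 of every 1000000 counts. The log2 fold change of the sum was -0.084 (interval -0.15 to -0.015). Of the 42 members, 39 had a count and 31 had a mean of at least 10 counts. Those 31 centred on a median of -0.21 on the log2 scale, beside 0.0047 over all 15246 genes, and 21 of them lay below 0. Ccdc153, which had no counts in the OE-labelled library, lies at the low end whether at its fitted value or at its bound, so the median does not depend on which is used. At the low end stood Ccdc153, Dnah6 and Hydin, and at the high end Tekt1 and Tekt4.

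Past log2 0.2, the threshold that the study's methods use, 16 of the 31 members were lower in the OE-labelled library, where 16.6% of all genes were, and 7 were higher, where 17.9% of all genes were. The members had mean counts between 10.5 and 403, and low counts scatter more. Among the 7458 genes in that range, 25.0% were lower and 26.3% higher by log2 0.2, so that the share of higher members was near its background and that of lower members, 51.6%, was above it. A counting interval below 0 was seen for 8 members, which are Ccdc153, Dnah5, Dnah6, Dnah10, Hydin, Rsph1, Rsph4a and Tekt5, or 25.8%, beside 14.4% of all genes and 9.99% of genes in the range. Past log2 1, 5 members were lower, beside 1.28% of all genes and 2.43% in the range, and 1 was higher, beside 1.53% and 2.72%. An interval above 0 was seen for 4 members, Ccdc40, Rsph3b, Tekt1 and Tekt4, or 12.9%, beside 15.9% of all genes and 10.4% in the range. For the other 19 members a difference was not detectable at this depth. Fewer cells with cilia and less RNA per cell cannot be told apart in bulk tissue.

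**Figure D1:**
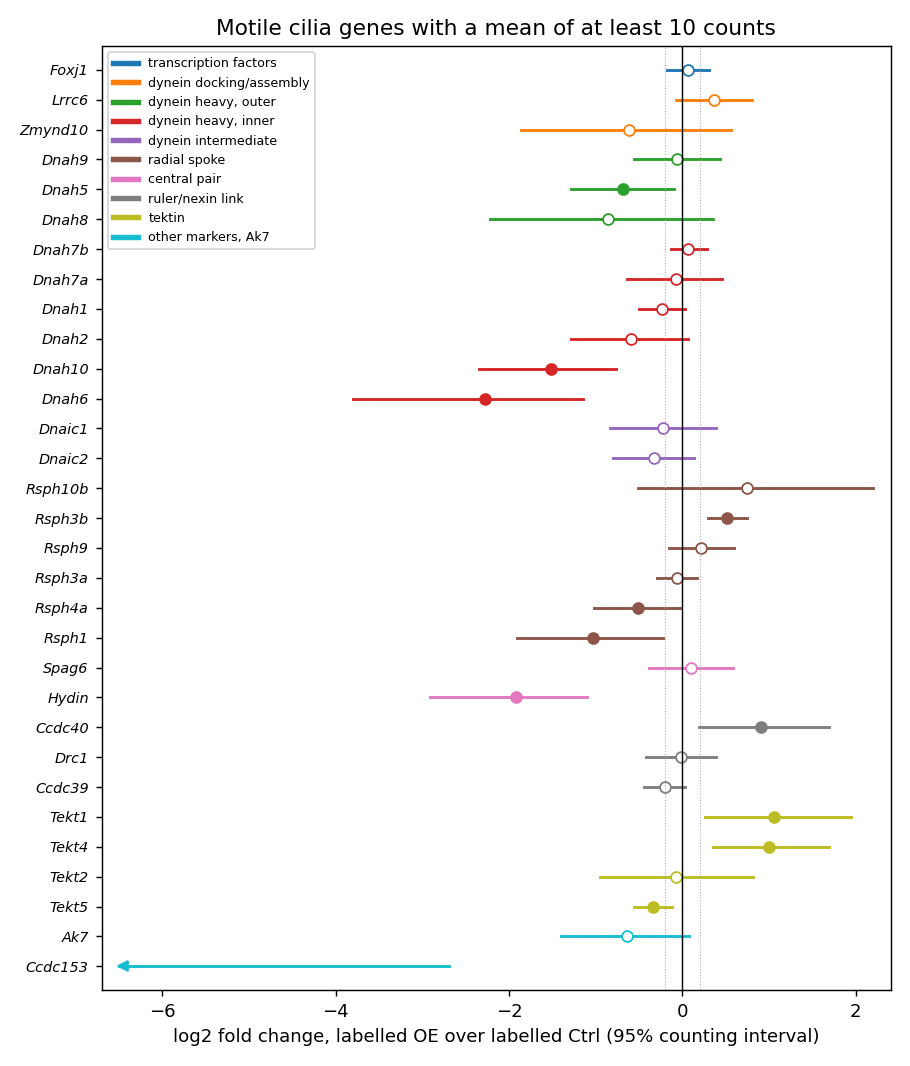
Log2 fold change for the OE-labelled over the Ctrl-labelled library, of the 31 members with a mean of at least 10 counts, coloured by role, with 95% counting intervals as lines. Filled points have an interval that excludes 0, dotted lines mark log2 0.2 on either side, and Ccdc153, at 0 counts in the OE-labelled library, is drawn without a point because its interval has no lower end. The lowest points are Dnah6 at -2.28 and Hydin at -1.92, and the highest is Tekt1 at 1.05.

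Among regulators, Foxj1 was well detected and nearly equal. It had 245 counts in the Ctrl-labelled and 318 in the OE-labelled library, and its log2 fold change was 0.063 (interval -0.18 to 0.31). Mcidas, which starts the programme of multiciliated cells upstream of Foxj1, had 5 and 4 counts. At this depth a difference of either gene was not detectable.

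Genes for docking and assembly of dynein arms had values on both sides of 0. Lrrc6, needed for assembling dynein arms in the cytoplasm, had 72 and 115 counts, giving a log2 fold change of 0.36 (interval -0.075 to 0.81). Zmynd10, a partner of Lrrc6 in that step, had 15 and 12 counts and a value of -0.61 (interval -1.86 to 0.56). Armc4, part of the docking of outer arms, had 1 and 2 counts. None of the 3 was separated from counting error.

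The heavy chains are the motors of the axoneme, and 6 of the 9 that could be compared were lower by more than log2 0.2 in the OE-labelled library. By the same threshold 16.6% of all genes were lower, 25.0% of genes in the range of counts of the members and 20.9% of genes over 9000 bases. Dnah6, of the inner arms, had 29 counts in the Ctrl-labelled and 7 in the OE-labelled library, giving a log2 fold change of -2.28 (interval -3.80 to -1.14). Dnah10, also of the inner arms, had 49 and 21 counts and a value of -1.51 (interval -2.35 to -0.77). Dnah5, a heavy chain of the outer arm, had 57 and 44 counts and a value of -0.68 (interval -1.29 to -0.094). These 3 had intervals below 0. Dnah9, the other main outer heavy chain of cilia, had 65 and 77 counts, giving a log2 fold change of -0.068 (interval -0.56 to 0.43). Dnah2 had 44 and 36 counts and a value of -0.60 (interval -1.28 to 0.066). Dnah1, with 235 and 248 counts, had a value of -0.23 (interval -0.50 to 0.028). Outer and inner chains therefore each held genes that were lower and genes near 0. Dnah8 had 15 and 10 counts and a value of -0.86 (interval -2.21 to 0.35). Dnah11 and Dnah17 lay under the minimum with 12 and 4 and with 10 and 9 counts. Dnah12 and Dnah14 were at 0 in both libraries.

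Dnah7b, an inner-arm chain, was the heavy chain with the most counts, 349 and 456, and its log2 fold change was 0.070 (interval -0.13 to 0.28). Its paralog Dnah7a had 53.6 and 63.1 counts and a value of -0.077. Both have fractional counts, since RSEM shares reads between transcripts they match equally, so the pair is more certain than its parts. Summed, the pair had a log2 fold change of 0.051 (interval -0.14 to 0.24). The intermediate chains of the outer arm, Dnaic1 and Dnaic2, had 46 and 49 and 80 and 79 counts, with values of -0.22 and -0.33 and intervals that included 0. Over the 5 outer heavy chains, the summed counts were 159 and 144, a log2 fold change of -0.46 (interval -0.79 to -0.12). Over the 8 inner ones they were 760 and 831, a value of -0.18 (interval -0.33 to -0.040).

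Radial spoke genes went both ways. Rsph1, a protein of the spoke head, had 35 counts in the Ctrl-labelled and 21 in the OE-labelled library, giving a log2 fold change of -1.03 (interval -1.90 to -0.23). Rsph4a, also of the head, had 76 and 66 counts and a value of -0.51 (interval -1.01 to -0.022). Rsph9, the third head protein listed, had 103 and 149 counts and a value of 0.22 (interval -0.15 to 0.60). Transcripts for 1 substructure thus had values on both sides of 0. Rsph3b, of the spoke stalk, had 248 and 441 counts and a value of 0.51 (interval 0.29 to 0.75), while its near copy Rsph3a had 279 and 332 counts and a value of -0.060. Their counts are fractional too, and summed they gave 0.24 (interval 0.078 to 0.40). Rsph10b had 8 and 17 counts and a value of 0.74 (interval -0.52 to 2.20), and its exons overlap those of Pms2 on the same strand in the GENCODE M21 annotation. Rsph6a, known from sperm, had 0 and 1 counts.

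Hydin, a giant protein of the central pair whose loss causes hydrocephalus in mice, was among the members with the lowest values. It had 47 counts in the Ctrl-labelled and 15 in the OE-labelled library, giving a log2 fold change of -1.92 (interval -2.91 to -1.10). Spag6, of the same structure, had 64 and 85 counts and a value of 0.096 (interval -0.39 to 0.59). RefSeq also lists Spag6 as an older name of its paralog Spag6l, so which of them the row measures is uncertain. Spag16 and Spag17 were near the limit of detection, with 4 and 3 and with 4 and 0 counts.

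The molecular ruler Ccdc39 and Ccdc40, which work as a complex to set the spacing of dynein arms, differed from each other. Ccdc39 had 298 counts in the Ctrl-labelled and 321 in the OE-labelled library, giving a log2 fold change of -0.21 (interval -0.44 to 0.026). Ccdc40 had 23 and 54 counts and a value of 0.91 (interval 0.19 to 1.69). The exons of Ccdc39 overlap those of Ttc14 on the opposite strand, a gene with 3535 and 3531 counts. The libraries were stranded, but whether counting used the strand is not given in the sources used here. Drc1, of the nexin link between doublets, had 96 and 118 counts and a value of -0.015 (interval -0.42 to 0.39).

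Tektins, filaments inside the doublet microtubules, gave the highest values of the members. Tekt1 had 18 counts in the Ctrl-labelled and 47 in the OE-labelled library, giving a log2 fold change of 1.05 (interval 0.26 to 1.94). Tekt4 had 28 and 70 counts and a value of 0.997 (interval 0.36 to 1.70). Tekt2 had 22 and 26 counts and a value of -0.071 (interval -0.95 to 0.82). Tekt5, with 349 and 342 counts, was lower, at -0.34 (interval -0.56 to -0.12). Tekt3 was at 0 in both libraries. Among the 4 tektins that could be compared, 2 thus had an interval above 0 and 1 below it, and that of Tekt2 included 0. Intervals above and below 0 were seen for 15.9% and 14.4% of all genes. In the count range of the members they were seen for 10.4% and 9.99%.

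Ccdc153, Tmem212 and Ak7, which have none of the roles above, all had fewer counts in the OE-labelled library. Ccdc153, a coiled-coil gene used as a marker of ependymal cells, had 21 counts in the Ctrl-labelled and 0 in the OE-labelled library. Against a floor of 3 counts it was at least 8.70-fold lower, taking its 21 counts as exact. The counting interval, which allows for error in both counts, ends at 6.47-fold lower. Tmem212, another ependymal marker, lay under the minimum with 7 and 2 counts, giving a log2 fold change of -1.86 with an interval from -5.42 to 0.27. Ak7, an adenylate kinase of motile cilia, had 38 and 30 counts and a value of -0.64 (interval -1.40 to 0.075). Only Ccdc153 was separated from counting error. As a check of the name ependyma, Foxj1 and most axonemal genes were detected, while Ccdc153, Tmem212 and Mcidas had at most 21 counts in either library, and which cells the RNA came from cannot be read from bulk tissue.

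**Figure D2:**
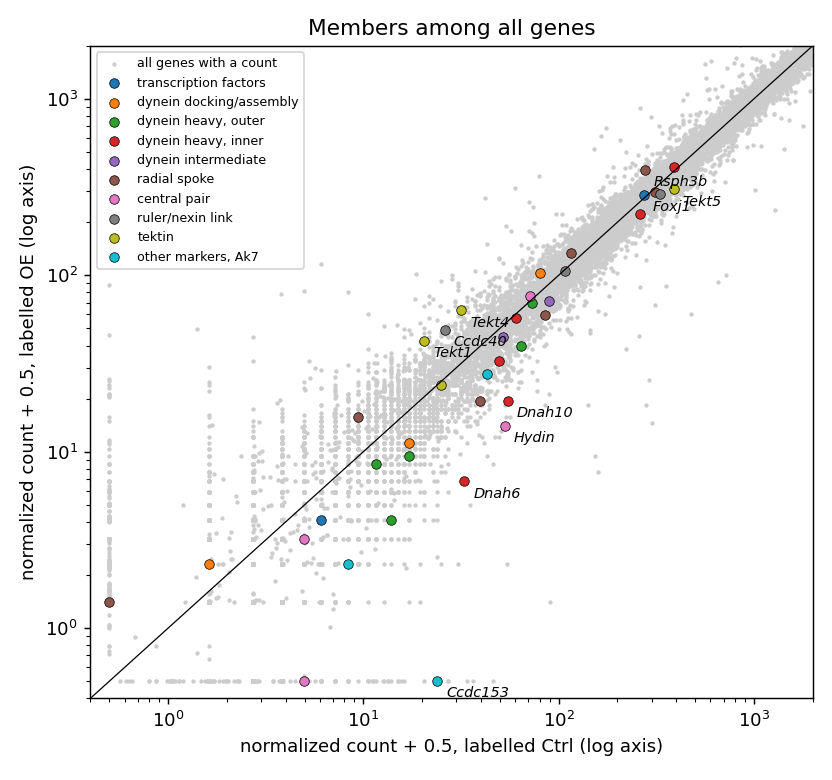
Normalized count plus 0.5 in the Ctrl-labelled library (horizontal) and in the OE-labelled library (vertical), on log axes cut at 2000, for the 39 members with a count (coloured by role) and all genes with a count (grey). Foxj1 and the other abundant members lie near the line of equality, with Rsph3b somewhat above it, while Hydin, Dnah6, Dnah10 and Ccdc153 lie below it and Tekt1, Tekt4 and Ccdc40 above it.

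The spread was widest among members with few counts. For the 16 members with a mean of at least 50 counts, the median log2 fold change was -0.064. The 5 lowest of them were Dnah5, Rsph4a, Tekt5, Dnaic2 and Dnah1, and the 5 highest were Rsph3b, Lrrc6, Rsph9, Spag6 and Dnah7b. For the 9 members with a mean of at least 100 counts, the median was -0.015, with 3 lower and 2 higher by more than log2 0.2. The negative median of the 31 members therefore comes with the scarcer genes, and the abundant ones centred near 0.

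Levels of different members were compared as normalized counts per kilobase, using the longest transcript of each gene in GENCODE M21, which matched all 42 symbols. Tekt5 had the highest level in the Ctrl-labelled library, 216, and 170 in the OE-labelled library. Rsph3b had the highest in the OE-labelled library, 176, and 123 in the Ctrl-labelled library. Below them in the mean of both libraries came Rsph3a with 140 and 134, Rsph9 with 119 and 138, Foxj1 with 104 and 109 and Ccdc39 with 92.1 and 79.9. The order among Tekt5, Rsph3b, Rsph3a and Rsph9 differed between the libraries. Heavy chains were far lower, from Dnah7b at 31.6 and 33.2 down to Dnah9 at 5.25 and 5.01 and Dnah6 at 2.55 and 0.496. Hydin stood at 3.32 and 0.853. Levels of the members thus spanned from under 1 to over 100 normalized counts per kilobase. Whether these transcripts came from the same cells cannot be read from bulk tissue.

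**Figure D3:**
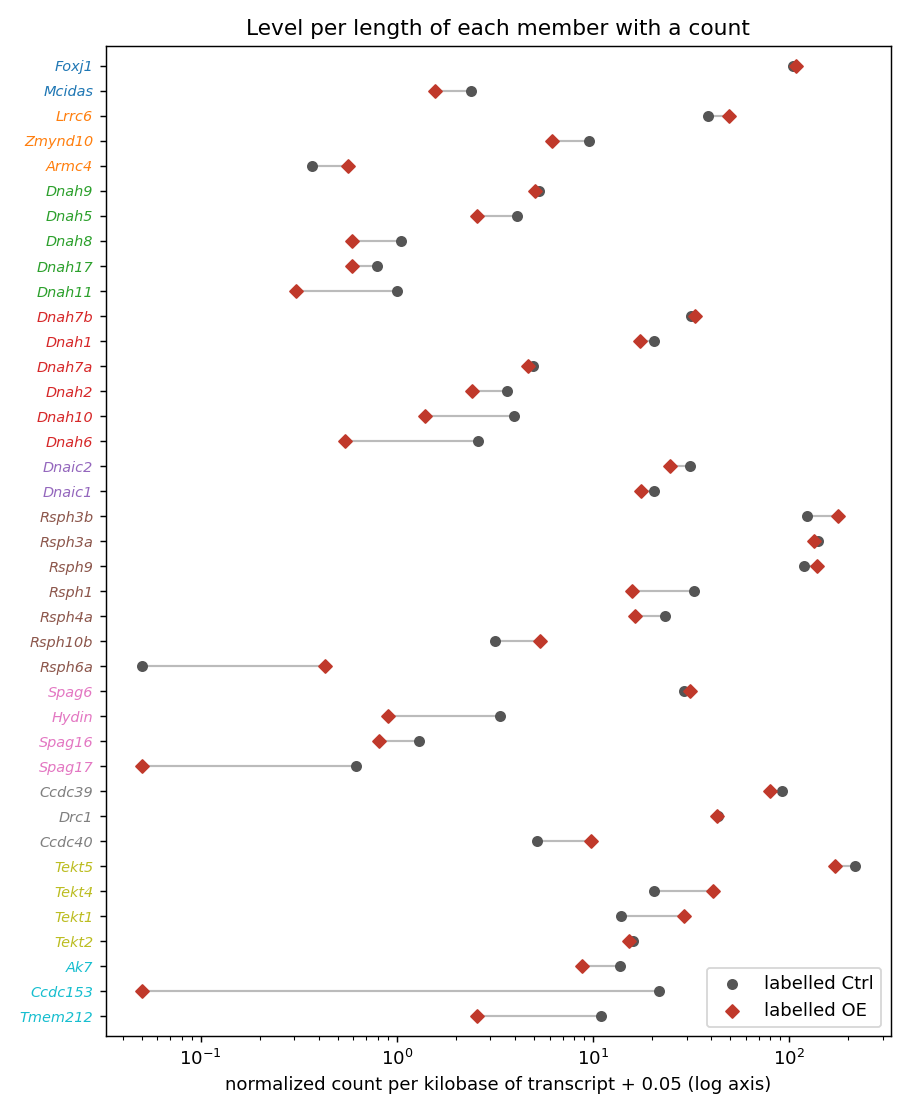
Normalized count per kilobase of transcript, plus 0.05 on a log axis, of the 39 members with a count, in the Ctrl-labelled library (grey circles) and the OE-labelled library (red diamonds), with gene names coloured and grouped by role. Tekt5, the Rsph3 genes, Rsph9 and Foxj1 stand highest, and the widest gaps are at Ccdc153, Spag17 and Rsph6a, which are at 0 in 1 library.

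Transcript length divided the 31 members that could be compared into 2 groups with a gap between 4979 and 12245 bases, a split made after their values were seen. The 10 longer ones, 9 heavy chains and Hydin, had a median of -0.64 on the log2 scale, and 7 were lower by more than log2 0.2. The 21 shorter ones had a median of -0.060, with 9 lower by as much. Of 559 genes over 9000 bases in the whole table, 20.9% were lower by log2 0.2 and the median was -0.065. Across the 31 members, Spearman's rho between length and log2 fold change was -0.36, and across 13874 genes it was -0.17. These are correlations over genes measured in the same 2 libraries and carry no test, and the part of length in the result was not tested.

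Rows under older names of the same families were found through RefSeq synonyms, 36 rows for 34 genes, 33 of them of the Cfap family. Of these rows, 25 had a mean of at least 10 counts, and their median log2 fold change was -0.040, with 9 lower and 3 higher by more than log2 0.2, or 36.0% and 12%, beside 16.6% and 17.9% of all genes. Among genes in the count range of the members, 25.0% were lower and 26.3% higher. Wdr96, now Cfap43, a protein tied to the doublets and needed for ciliary beating, had 22 counts in the Ctrl-labelled and 2 in the OE-labelled library and a value of -3.45 (interval -6.91 to -1.75). Wdr16, now Cfap52, had 15 and 6 counts, a value of -1.55 (interval -3.29 to -0.19), and Ccdc108, now Cfap65, had 97 and 78 counts, a value of -0.62 (interval -1.08 to -0.18). These were the 3 rows with an interval below 0, or 12%, beside 14.4% of all genes and 9.99% in the range of the members, and 0 rows had one above 0. The most abundant of them, Ccdc104 (now Cfap36), with 1408 and 1772 counts, had a value of 0.019, and of the Cfap genes listed as known from many tissues, Cfap20, Cfap36, Cfap97 and Cfap410 lay within log2 0.2 and Cfap298 stood at 0.25.

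Other genes of the pathway were taken from lists. Of 58 further axonemal genes in the table, 10 of which are also among the rows with older names, 42 could be compared. Their median was -0.15, with 18 lower and 5 higher by more than log2 0.2, and 4 had an interval below 0 and 2 above it. The shares lower and higher were 42.9% and 11.9%, beside 16.6% and 17.9% of all genes. In the count range of the members, 25.0% of genes were lower and 26.3% higher. The share with an interval below 0 was 9.52%, beside 14.4% of all genes and 9.99% in that range. Without the 10 rows with older names the median was -0.072. The summed counts of all 58 went the other way, with a log2 fold change of 0.066 (interval 0.012 to 0.12). Fam183b, with 26 and 58 counts, was higher by 0.83 (interval 0.15 to 1.57), and Tppp3, a tubulin-binding protein also made by other brain cells, had 1233 and 2048 counts and a value of 0.42. The normalized counts of Tppp3, 1374 and 1837, rose by more than those of the whole list, 5520 and 5780. The sign of the sum therefore rests on Tppp3. Of 13 regulators of multiciliated cells, 9 could be compared, with a median of -0.21. By log2 0.2, 5 of them were lower and 1 higher, or 55.6% and 11.1%, beside 16.6% and 17.9% of all genes. In the count range of the members, these shares were 25.0% and 26.3%. An interval below 0 was seen for 2 of the 9, or 22.2%, beside 14.4% of all genes and 9.99% in that range. None of the 9 had an interval above 0. Rfx3, a factor of the X-box, had 429 and 476 counts and a value of -0.16 (interval -0.35 to 0.028), and Rfx2 had 41 and 52 counts and a value of 0.029. Myb, a factor of multiciliated differentiation, had 23 and 10 counts and a value of -1.46 (interval -2.75 to -0.39). Plk4, the 1 gene higher by more than log2 0.2, had 81 and 120 counts and a value of 0.25 (interval -0.16 to 0.68).

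Genes of intraflagellar transport and the BBSome, which immotile primary cilia also use, stayed close together. All 36 in the table could be compared, the median was 0.027, and values ran only from -0.28 to 0.40. By log2 0.2, 2 were lower and 5 higher, or 5.56% and 13.9%, beside 16.6% and 17.9% of all genes. Arl6, which recruits the BBSome to membranes, had 343 and 561 counts and the highest value, 0.40 (interval 0.20 to 0.59). These genes had far more counts than the members, 26386 and 33813 in sum, so their values carry less counting error.

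**Figure D4:**
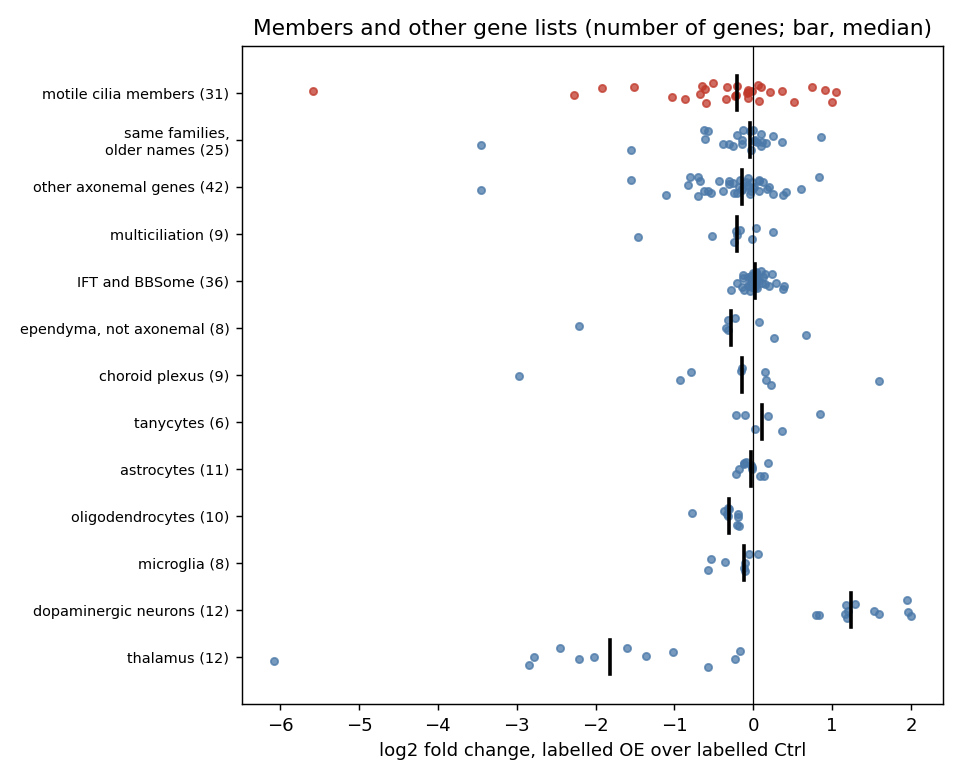
Log2 fold change for the OE-labelled over the Ctrl-labelled library, of the members in red and of genes of other lists in blue, for genes whose mean reached 10 counts. Each point is 1 gene, the black bar is the median of the list, and numbers in parentheses give the genes compared. The members spread from Ccdc153, drawn at a value that depends on the pseudocount, to Tekt1. The lowest thalamus point, Gbx2, depends on it too. Genes of intraflagellar transport and the BBSome stay between -0.28 and 0.40.

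Markers of cells in or near the ventricular lining were compared too. Of 13 ependymal genes that are not axonemal, 8 could be compared, with a median of -0.28 and summed normalized counts of 2437 and 2105. By log2 0.2, 5 were lower and 2 higher (62.5% and 25.0%, beside 16.6% and 17.9% of all genes). In the count range of the members, 25.0% of genes were lower and 26.3% higher. An interval below 0 was seen for 3 of the 8 and one above 0 for 1, beside 14.4% and 15.9% of all genes. Cdhr3, a cadherin-related protein of ciliated cells, had 24 and 6 counts and a value of -2.21 (interval -3.89 to -0.98). Vim at -0.34 and Pltp at -0.23 were the others compared with an interval below 0. Cd24a had 130 and 257 counts and a value of 0.67 (interval 0.36 to 0.99). Riiad1, the other higher gene, had 18 and 27 counts and a value of 0.27 (interval -0.64 to 1.22). Which cells the RNA of Vim, Pltp or Cd24a came from cannot be read from bulk tissue. Cdhr4, Fam216b and Sntn were at 0 in the OE-labelled library, with 1, 12 and 4 counts in the Ctrl-labelled library, and only the interval of Fam216b excluded 0. Of 16 choroid plexus genes, 9 could be compared, with a median of -0.14 and summed normalized counts of 1244 and 730. By log2 0.2, 3 were lower and 2 higher (33.3% and 22.2%), beside 16.6% and 17.9% of all genes. The shares in the count range of the members, 25.0% and 26.3%, were near these. Ttr, the thyroid hormone carrier that marks the plexus, had 426 counts in the Ctrl-labelled and 67 in the OE-labelled library. Its value was -2.97 (interval -3.38 to -2.61). The normalized counts of Ttr were 475 and 60.1, so most of the fall in the sum was that of Ttr. Of the 9 compared, 3 had an interval below 0 and 1, Cldn2, had one above 0 (33.3% and 11.1%). Among all genes these shares were 14.4% and 15.9%, and in the count range of the members 9.99% and 10.4%. Cldn2 had 9 and 35 counts (interval 0.56 to 2.89). None of the 16 was at 0 in either library. Of 8 tanycyte genes, 6 could be compared, with a median of 0.11 and summed normalized counts of 1465 and 1388. The intervals of all 6 included 0, and Rax, which defines these cells, was at 0 in both libraries.

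Neuronal markers, some for cells of the dissected midbrain itself and others for the thalamus, differed by more. Each of 12 markers of dopaminergic neurons was higher by more than log2 0.2 in the OE-labelled library, where 17.9% of all genes were. Their median was 1.24, with summed normalized counts of 28636 and 67804. Of 12 thalamus markers, 11 were lower by more than log2 0.2, where 16.6% of all genes were. Their median was -1.81, with summed normalized counts of 23206 and 14209, and Gbx2 was at 0 in the OE-labelled library. Astrocyte, oligodendrocyte and microglia markers had medians of -0.035, -0.31 and -0.11 over 11, 10 and 8 genes, with summed normalized counts of 71853 and 67256, of 378461 and 316907, and of 6116 and 5027. The part of these markers in the values of the motile cilia genes was not tested, and with 1 library per group the piece of tissue and the genotype cannot be told apart.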

How the data were processed

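RNA of dissected ventral midbrain was sequenced as stranded, polyadenylated, paired 50 bp libraries by a company that ran its own pipeline. The authors deposited RSEM expected counts (estimated reads per gene), not scaled between libraries, and 95.4% of the values are whole numbers. The submitters' processing notes name the build mm10, and the aligner, versions and annotation are not given in the sources used here. Each library was assigned by the number shared by its column and its label. Expected counts were rounded for TMM (edgeR 4.0.16, R 4.3.3) and for intervals (scipy 1.17.1, Python 3.11.15). A value against a library at 0 is a bound computed with 3 counts in that library. The totals of 16984336 and 21326632 counts left most members under 100 counts, which limits the precision of their values. No test across mice was possible, and the interval procedure was tested on simulated data. Members, gene lists and alternatives were chosen with earlier results of these data known. By rule, values are given for members with at least 10 mean counts that have a role in the axoneme or are named in the rule, for the 5 largest values on either side among members with at least 50, and for a few genes of each list, and others were named after their values were seen. Lengths and exon overlaps came from GENCODE M21 and promoters from RefSeq, both on GRCm38, the assembly called mm10. Alternatives were scaling by DESeq2 1.42.0 size factors, by library totals or by the upper quartile of detected genes, a pseudocount of 5 and other count minimums and thresholds. Leaving out members with fractional counts, adding rows with older names, and a minimum of 50 were added after the data were seen.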

Additional observations from a re-analysis of the deposited data

How the results depend on the processing

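No paired analysis was possible because there is only 1 library per genotype, and for the same reason no library could be left out. Under 3 other scalings the median of the members ran from -0.22 to -0.19 and no member changed the side of 0 on which its counting interval lay. The medians of the 12 other lists moved by at most 0.015 under these scalings and at most 0.052 with a pseudocount of 5. No counting error was computed for a median, and 4 of the 48 moves exceeded the half-width of the interval of the summed counts of the list. These were the medians of oligodendrocyte markers under library totals (-0.33) and the upper quartile (-0.30), of astrocyte markers under library totals (-0.050), and of thalamus markers with a pseudocount of 5 (-1.76). Over all genes, the median stayed between -0.011 and 0.017 under every scaling. Counts of members moved with the filter, which by construction changes how many genes can pass. With a mean of at least 100 counts the median was -0.015, 2 members were higher and 3 lower by more than log2 0.2, and 1 interval lay above 0 and 1 below it. With a mean of at least 50 counts the median was -0.064. Past log2 1, 1 member was higher and 5 were lower, beside 1.53% and 1.28% of all genes. Without the 4 members with fractional counts the summed members gave -0.20. With the rows under older names the median was -0.10, and 25 of 56 genes were lower by more than log2 0.2, beside 16.6% of all genes. The cause was not tested. An alternative without broadly used Cfap genes changed nothing, since no row carries such a symbol. The value of Ccdc153 moved from -5.58 to -2.51 with a pseudocount of 5, and its bound does not depend on it.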

Other observations

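Of 15253 rows with at least 9 counts in the library labelled Ctrl, 22 were at 0 in the library labelled OE, and 4 of these were cilia or ependymal genes, of which 114 were among the 15253 rows. They were Ccdc153 (21 counts), Iqca (14 counts), Fam216b (12 counts) and Wdr63 (9 counts). Iqca, of the nexin link, was at least 5.80-fold lower against a floor of 3 counts, Fam216b at least 4.97-fold and Wdr63, an intermediate chain of inner arms, at least 3.73-fold, taking the counts of the library labelled Ctrl as exact. Their counting intervals, which allow for error in both counts, end at 4.12-fold, 3.45-fold and 2.45-fold lower. In the other direction, 21 of 15533 rows were at 0 in the library labelled Ctrl with at least 9 counts in the library labelled OE, and 0 of them were cilia or ependymal genes, of which 106 were among the 15533 rows. These rows were chosen after their values were seen, and the count carries no test.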
